A study of Mus musculus with 18 samples.

Results

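The genes described here are Tal1, Lyl1, Lmo2, Cbfa2t3 and Ldb1, whose products form or join the Tal1 transcription complex of blood cells. Members were taken by gene symbol from the platform annotation, which gave 5 of the 8251 genes and 8 of the 12422 non-control probe sets on the array: 1 for Tal1, 2 for Lyl1, 2 for Lmo2, 2 for Cbfa2t3 and 1 for Ldb1. No filter on signal was applied, so all 8 were tested. They were measured in G1E cells, a mouse erythroid line derived from embryonic stem cells with a disrupted Gata-1 gene. Every sample came from its ER4 subclone, which carries Gata-1-ER, a Gata-1 protein fused to the domain by which the estrogen receptor binds estradiol, so the treated and the untreated cells share both the missing gene and the fusion. RNA was taken from untreated cells (no estradiol, written 0 h) and at 3, 7, 14, 21 and 30 h after estradiol was added, in 3 biological replicates (A, B and C) a time, on 18 arrays. The question put to the members is how each of them changes once Gata-1 is switched on and the cells mature, which the labels describe as a passage from late burst-forming progenitors to orthochromatic erythroblasts. The cells are 1 clone, and no array came from estradiol-treated cells without the fusion, so effects of the hormone, of Gata-1-ER and of time in culture cannot be told apart.

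Tal1 is a basic helix-loop-helix (bHLH) factor that joins an E protein such as Tcf3 or Tcf12 and binds short DNA words called E-boxes. Lmo2, which does not touch DNA itself, bridges Tal1 to a Gata factor, and Ldb1 holds the assembly together and, through its own self-association, is known for bringing distant enhancers such as the globin control region to their promoters. Cbfa2t3, also called Eto2, brings in repressors, and Lyl1 is a close relative of Tal1 that can stand in its place beside the same partners. In red cell precursors the complex is known to sit with Gata-1 on genes of heme, globin and the membrane, and in progenitors with Gata-2.

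Promoter sequences are shown for the 3 members that were lower 3 h after estradiol, because the words bound by Gata factors and by Tal1 with its E proteins can be read in them. They come from RefSeq (GRCm38.p6), run 5' to 3' on the gene's strand from 250 bases before to 50 bases after the start, and carry every GATA core (GATA or its complement TATC) and every E-box (CANNTG) in capitals. The Tal1 sequence lies at chr4:115056176-115056475 on the plus strand, the Lyl1 sequence at chr8:84701207-84701506 on the plus strand, and the Cbfa2t3 sequence at chr8:122699060-122699359 on the minus strand.
Tal1, start 1: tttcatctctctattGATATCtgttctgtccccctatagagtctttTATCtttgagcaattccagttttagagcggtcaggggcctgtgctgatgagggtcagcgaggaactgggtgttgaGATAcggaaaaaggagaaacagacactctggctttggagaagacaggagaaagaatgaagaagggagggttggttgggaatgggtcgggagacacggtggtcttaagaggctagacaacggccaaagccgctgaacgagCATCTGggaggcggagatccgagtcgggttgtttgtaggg
Lyl1: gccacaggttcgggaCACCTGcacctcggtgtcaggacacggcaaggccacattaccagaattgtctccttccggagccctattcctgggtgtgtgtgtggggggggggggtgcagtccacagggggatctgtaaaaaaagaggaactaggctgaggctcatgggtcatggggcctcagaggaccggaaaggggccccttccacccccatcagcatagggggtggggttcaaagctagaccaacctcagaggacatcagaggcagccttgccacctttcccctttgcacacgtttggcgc
Cbfa2t3, start 1: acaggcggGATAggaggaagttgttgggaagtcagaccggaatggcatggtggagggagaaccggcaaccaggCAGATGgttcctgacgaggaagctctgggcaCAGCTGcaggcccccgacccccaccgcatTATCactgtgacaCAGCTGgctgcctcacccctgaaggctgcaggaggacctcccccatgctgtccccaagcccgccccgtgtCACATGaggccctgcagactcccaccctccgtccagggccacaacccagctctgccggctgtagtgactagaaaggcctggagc

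Both strands were searched for 4 GATA boxes (the core GATA with A or T before it and A or G after it), for the core alone, which every such box contains, for CANNTG, and for a composite of an E-box part and a GATA core at a set distance, which is CTG, any 8 or 9 bases, and GATA. Start 1 of Tal1 held 1 GATA box, 4 GATA cores of which 2 overlap each other, 1 E-box and 1 composite, whose letters CTGGGTGTTGAGATA run from base -140 to base -126. Start 1 of Cbfa2t3 held 1 GATA box, 2 GATA cores, 4 E-boxes of which 2 read CAGCTG, and 1 composite on the opposite strand, which shares bases with the GATA box and with a CAGCTG. The Lyl1 window held 1 E-box, CACCTG, and no GATA core. Of 32851 RefSeq promoter windows of the same length, 29.8% held any of the 4 GATA boxes, 57.9% a GATA core, 72.3% an E-box, 16.3% CAGCTG and 4.69% the composite.

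The other promoter windows of the members differed from these. Start 2 of Tal1 and starts 1 and 2 of Ldb1 held none of the words, start 2 of Cbfa2t3 held 1 E-box, and start 3 of Ldb1 held 2 GATA boxes, 5 GATA cores and 2 E-boxes. No promoter of Lmo2 was used here. A match is a description of the letters, and which start these cells use was not measured.

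**Figure D1:**
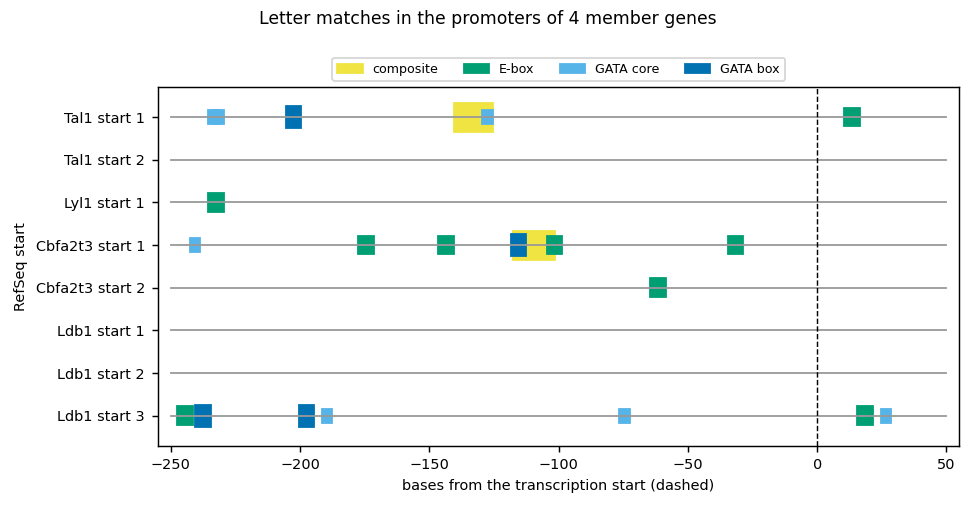
Positions of letter matches in the 8 RefSeq promoter windows of Tal1, Lyl1, Cbfa2t3 and Ldb1, in bases from the transcription start (x axis, dashed line at the start), with 1 row for each start. Composites, E-boxes, GATA cores and GATA boxes are coloured blocks: the composites lie in start 1 of Tal1 and start 1 of Cbfa2t3, and Lyl1 has 1 E-box alone.

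The deposited signals had been scaled to a common level, with a trimmed mean between 150.09 and 150.12 on every array, and the 3' to 5' signal ratio of Gapdh lay between 0.914 and 1.27. The same ratio of actin lay between 0.968 and 2.04, highest on an untreated array, 0 h C. Of the erythroid markers, 7 of 9 listed genes were on the array, and their summed signal was 52941 to 65184 after 30 h, against 9752 to 12441 in untreated cells. Hba-a1 was the brightest of them, averaging 26549 after 30 h, against 6061. Epor did not follow the sum, at 574 after 30 h against 584, while the other measured genes of the list averaged higher than in untreated cells. Summed signals of the other lists, which read other probe sets and cannot be set against that sum, were 50.4 to 203 for 4 megakaryocyte genes, 84 to 226 for 5 mast cell and basophil genes, 159 to 358 for 6 neutrophil and macrophage genes, 90.4 to 229 for 3 lymphocyte genes and 427 to 1023 for 4 fibroblast genes, most of it from Col1a2, which was read by an uncertain kind of probe set. The fibroblast sum was 716.5 to 981 after 30 h, against 516 to 610 in untreated cells. The megakaryocyte sum was 119.5 to 203 after 14 h and 116 to 158 after 21 h, against 67.3 to 71.5 in untreated cells, with Gp9 averaging 118 after 14 h, against 30.8. The part of either list in the changes below was not tested. No listed marker had a time mean of 0. The growth of the erythroid sum ran beside the changes given below, and its part in them was not tested. As an array measures RNA from all cells together, a change in how many cells of a stage are present and a change in the RNA of each cell cannot be told apart.

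Within 3 h of estradiol, Tal1, Lyl1 and Cbfa2t3 had fallen, and Ldb1 passed no test against 0 h. Lmo2 had its highest mean after 7 h, which was not told apart from 14 h. The later courses parted. Tal1 and the brighter Cbfa2t3 probe set were higher again after 30 h than after 3 h. The dimmer Cbfa2t3 probe set did not pass that test (0.22, limma adjusted p = 0.759). Lyl1 was lower than in untreated cells at every later time, and Lmo2 was not called against untreated cells after 21 h or 30 h. In the limma F test over all times, 6 of the 8 member probe sets were called (adjusted p under 0.05), where 27.2% of all probe sets were, and the exceptions were Ldb1 (adjusted p = 0.0877) and the dimmer Cbfa2t3 probe set (adjusted p = 0.109).

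At 3 h against 0 h, 4 of the 8 member probe sets were called lower and 0 higher, where 0.306% of all probe sets were lower and 0.757% higher, and 2 of the member probe sets had a 95% interval above 0 before adjustment. After 7 h, 4 were lower and 2 higher, against 1.69% and 2.48% of all probe sets. After 14 h, 3 were lower and 2 higher, against 6.77% and 6.55%. By 21 h 4 were lower and 0 higher, against 10.9% and 9.75%, and after 30 h 2 were lower and 0 higher, against 13.8% and 12.8%, with no interval above 0 at either time. The median log2 change of the 8 was -1.33 after 3 h, -1.15 after 7 h, -0.68 after 14 h, -0.45 after 21 h and -0.36 after 30 h, while the median of all probe sets lay between -0.00 and 0.05. The share of all probe sets that were called grew with time, while the members' count was 4 after 3 h, 6 after 7 h and 2 after 30 h. The 8 include pairs that read the same gene.

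**Figure D2:**
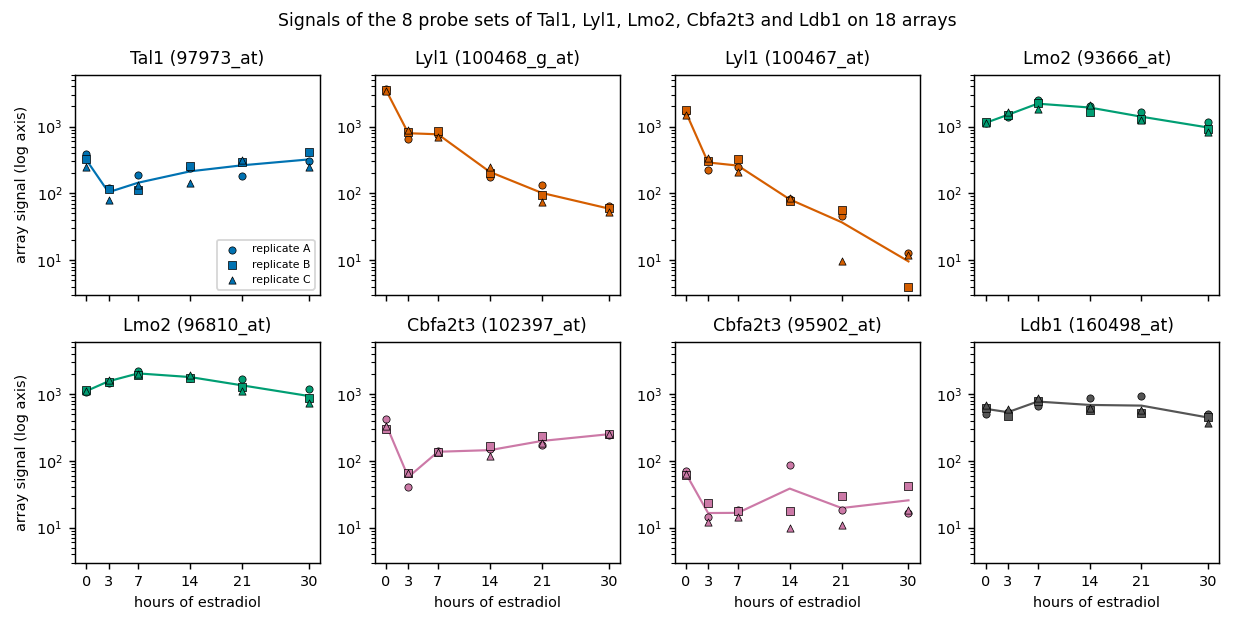
Deposited array signal (y axis, log scale) of the 8 member probe sets against hours of estradiol (x axis), with a symbol for each replicate and a line through the means of 3 arrays. Tal1 and the brighter Cbfa2t3 probe set dip after 3 h and climb back, both Lyl1 probe sets run down with a pause between 3 h and 7 h, both Lmo2 probe sets peak after 7 h and Ldb1 stays between 367 and 919.

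Tal1 itself was lower after 3 h and 7 h and was not called against untreated cells from 14 h on. Its signals were 386, 324 and 245 in untreated cells, and 118, 115 and 78.6 after 3 h, in replicates A, B and C. They were 189, 112 and 131 after 7 h, and 242, 254.5 and 143 after 14 h. After 21 h they were 182, 295 and 310.2, and after 30 h 308, 412 and 245. All 3 arrays after 3 h lay below all 3 untreated arrays, the 7 h arrays did too, and the ranges at 14, 21 and 30 h overlapped that of untreated cells.

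The mean Tal1 signal was 104 ± 21.9 after 3 h, against 318 ± 70.8 in untreated cells (SD, n = 3 each), which is 3.07-fold lower, and the fall was -1.45 on the log2 scale (SE 0.25, limma adjusted p = 0.00434). After 7 h the change was -1.05 (limma adjusted p = 0.0208). That call was lost without 0 h A, 0 h B, 7 h B or 7 h C, where the adjusted p went up to 0.107. From 14 h on Tal1 passed no test against untreated cells: the change was -0.51 after 14 h, -0.20 after 21 h and 0.09 after 30 h, and the 95% interval after 30 h ran from -0.44 to 0.63. The comparisons with 3 h were added after the course had been seen, and called 26.3% of all probe sets after 30 h, 18.8% after 21 h and 9.64% after 14 h. Against 3 h, Tal1 was higher by 1.54 after 30 h (limma adjusted p = 9.485e-05) and by 1.24 after 21 h (adjusted p = 0.00124). The rise after 14 h over 3 h, 0.93 (limma adjusted p = 0.0226), was lost without 3 h C, 14 h A or 14 h B and under median scaling. Of the log2 fall seen after 3 h, 27.3% had been regained after 7 h, 64.6% after 14 h and 86.0% after 21 h. In the order of means from 30 h down to 0, 21, 14, 7 and 3 h, no neighbours differed beyond their spread, since every adjacent pair of ranges overlapped.

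Lyl1, the relative of Tal1, was lower at every later time than in untreated cells. Its brighter probe set gave 3690.2, 3478 and 3348.5 in untreated cells, and 654, 827 and 899.7 after 3 h. It gave 738, 863 and 693 after 7 h, and 174, 204 and 248 after 14 h. After 21 h the signals were 134, 95.6 and 73.9, and after 30 h 65.4, 59.3 and 52.6. The ranges of 3 h and 7 h overlapped, and every other adjacent pair of times was apart, so the course ran down in steps with a pause between 3 h and 7 h. Its identifier carries the mark g, for a probe set that may also read related transcripts, so this reading alone would leave the gene uncertain.

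On the log2 scale the brighter Lyl1 probe set stood at -2.25 after 3 h (limma adjusted p = 4.54e-07), -2.29 after 7 h, -4.10 after 14 h, -5.02 after 21 h and -5.65 after 30 h (SE 0.18 at each time). The mean signal was 59.1 ± 6.4 after 30 h, against 3506 ± 172 in untreated cells (SD, n = 3 each), 59.3-fold lower. Of the log2 change reached after 30 h, 39.8% was present after 3 h, 40.6% after 7 h, 72.7% after 14 h and 88.9% after 21 h. Between neighbouring times, 7 h did not pass the test against 3 h (-0.04, 95% interval -0.41 to 0.33), and 14 h was lower than 7 h with a change of -1.81 (limma adjusted p = 1.82e-05). The further steps were -0.92 at 21 h against 14 h (limma adjusted p = 0.00777) and -0.63 at 30 h against 21 h (limma adjusted p = 0.0467). The call at 21 h against 14 h was lost without 14 h C (adjusted p = 0.06) and with the compared groups alone, and the last step missed the threshold under 6 of 9 other settings and without any of 13 arrays.

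The dimmer Lyl1 probe set has no such mark and ran the same way. Its signals were 1634.5, 1781 and 1499.8 in untreated cells, 221, 309 and 338 after 3 h, and 244, 326 and 209.7 after 7 h. They were 82.4, 76.6 and 84.4 after 14 h, 45.1, 55.7 and 9.8 after 21 h, and 12.8, 4.0 and 11.9 after 30 h. The 30 h arrays lay under the constant of 16 added before logs, so no fold is given for them. Its log2 change was -2.59 after 3 h and -4.19 after 14 h (SE 0.29), both called, and from 3 h to 21 h the log2 changes of the Lyl1 probe sets differed by 0.08 to 0.43. After 21 h, when 1 array at 9.8 lay under 16 as well, its change was -5.19. Over the settings other than leaving out an array, that change ran from -5.85 to -4.19. After 30 h it was called lower too, but the size there rests on the constant, at -7.57 with a constant of 1 and -4.63 with a constant of 64.

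Only these 2 probe sets of the 8 were called lower at 14 h against 7 h, where 1.07% of all probe sets were lower, and the call of the dimmer one there was lost without 7 h B and with a constant of 1. At 21 h against 14 h the 1 member called was the brighter Lyl1 probe set, lower, as were 1.38% of all probe sets, and at 30 h against 21 h it was again the brighter Lyl1 probe set, against 3.12%.

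**Figure D3:**
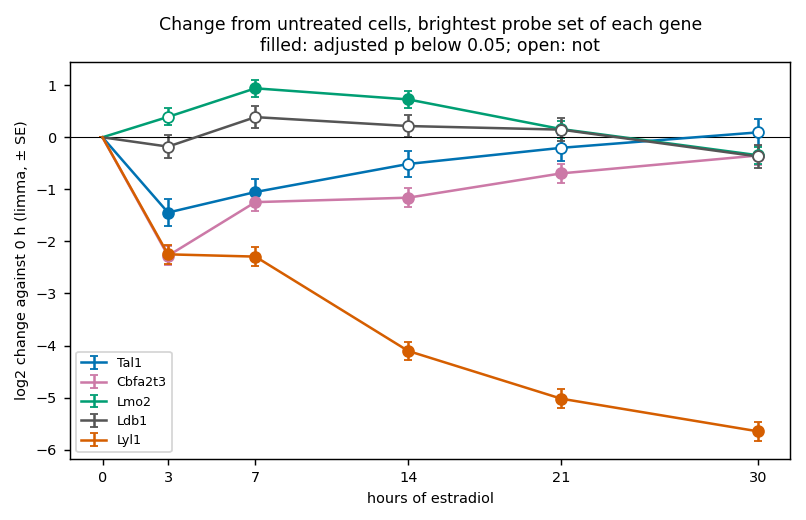
Change in log2 signal against 0 h (y axis, limma estimate ± SE) for the brightest probe set of each member over hours of estradiol (x axis), filled where the adjusted p was below 0.05. Lyl1 runs down to -5.65 after 30 h, while Tal1 ends at 0.09, Cbfa2t3 at -0.35, Lmo2 at -0.34 and Ldb1 at -0.37.

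Since Lyl1 is known as a stand-in for Tal1, the difference of their log2 signals was followed within each array. It was 3.29, 3.52 and 3.91 in untreated cells, 2.31, 2.72 and 3.29 after 3 h, and 1.96, 2.76 and 2.29 after 7 h. The values were -0.48, -0.29 and 0.71 after 14 h, -0.47, -1.42 and -1.84 after 21 h, and -2.06, -2.41 and -2.03 after 30 h. The brightness of different probe sets cannot be compared, so only the change of this difference is read. It moved by -0.80 after 3 h (exact permutation p = 0.2), with overlapping ranges, and by -1.24 after 7 h, -3.59 after 14 h, -4.82 after 21 h and -5.74 after 30 h, with ranges apart from untreated cells. Each of the last 4 gave an exact two-sided permutation p = 0.1, the smallest that 3 against 3 arrays allow, and 0.125 after adjustment over the 5 times, so this test could not reach 0.05 with 3 arrays a time.

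**Figure D4:**
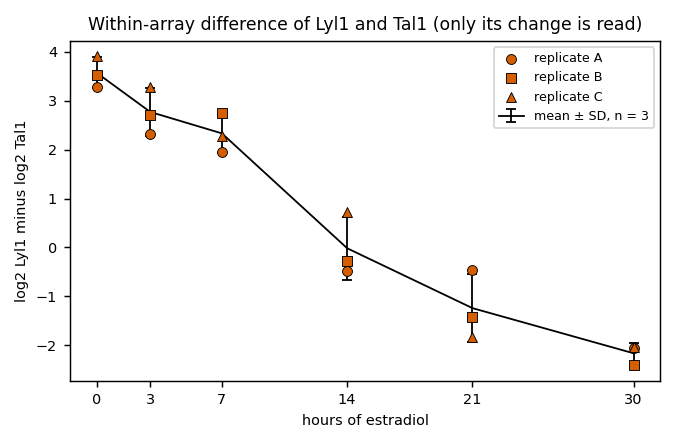
Log2 signal of Lyl1 minus log2 signal of Tal1 in each array (y axis) against hours of estradiol (x axis), with a symbol for each replicate and the mean ± SD of 3 arrays. Only the change over time has a meaning: the mean stands at 3.57 in untreated cells, -0.02 after 14 h and -2.17 after 30 h.

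Lmo2, the bridge of the complex, was higher after 7 h and 14 h and was not called against untreated cells later. The brighter probe set gave 1114.5, 1156 and 1128 in untreated cells, and 1384, 1477.5 and 1629 after 3 h. Signals were 2520.1, 2223 and 1850.4 after 7 h, and 2016, 1674 and 2087 after 14 h. They were 1664, 1287.5 and 1254 after 21 h, and 1158, 909 and 827.5 after 30 h. The arrays at 3, 7, 14 and 21 h all lay above the untreated ones, and those after 30 h overlapped them.

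After 7 h Lmo2 averaged 2198 ± 336, against 1133 ± 21.1 in untreated cells (SD, n = 3 each), 1.94-fold higher, with a log2 change of 0.94 (SE 0.16, limma adjusted p = 0.00151). The change after 14 h was 0.73 (limma adjusted p = 0.00429). After 3 h it was 0.39 and missed the threshold (adjusted p = 0.489), although the 95% interval before adjustment, 0.05 to 0.73, lay above 0, and after 21 h and 30 h it was 0.16 and -0.34, neither called. From its peak Lmo2 then fell: 30 h lay below 7 h with a log2 change of -1.28 (limma adjusted p = 6.89e-06) and 21 h below 7 h with a change of -0.78 (adjusted p = 0.00258), in comparisons added after the course had been seen, which called 20.6% and 12.6% of all probe sets. The dimmer probe set gave 1056, 1166 and 1097 in untreated cells, 2183, 1942 and 1983 after 7 h, and 1185, 885 and 731 after 30 h. Its log2 changes, 0.50, 0.85, 0.69, 0.16 and -0.34 from 3 h to 30 h, differed from those of the brighter by at most 0.11, and it was called at the same times, 7 h and 14 h. In the order of means, which both probe sets share (7, 14, 3, 21, 0 and 30 h), no adjacent pair passed the test.

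Ldb1, the scaffold, showed no called change against untreated cells at any time. Its signals were 495, 615 and 692 in untreated cells, 540.3, 464 and 601 after 3 h, and 661, 792 and 861 after 7 h. They were 867, 577 and 617 after 14 h, 919, 520 and 573 after 21 h, and 507, 459 and 367 after 30 h. Array A was the highest after 14 h, 21 h and 30 h and the lowest in untreated cells and after 7 h. The range of each later time overlapped that of 0 h. The log2 changes were -0.18, 0.39, 0.22, 0.15 and -0.37 from 3 h to 30 h (SE 0.21), and the 95% intervals reached no lower than -0.82 and no higher than 0.84. Among the added comparisons, 30 h lay below 7 h with a log2 change of -0.75 (limma adjusted p = 0.0153), a call that was lost without 7 h C or 30 h C.

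Cbfa2t3, the corepressor, was lower after 3 h, and its brighter probe set had regained most of that fall by 30 h, which the dimmer one had not. The brighter probe set gave 423, 300.4 and 329 in untreated cells, and 40.2, 65.2 and 65.9 after 3 h. Signals were 141, 134 and 135 after 7 h, and 149, 167 and 118 after 14 h. They were 175, 238 and 182 after 21 h, and 245, 253 and 253 after 30 h. Every array from 3 h to 30 h lay below every untreated array, with the 3 h arrays lowest of all.

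The Cbfa2t3 mean was 57.1 ± 14.6 after 3 h, against 351 ± 63.9 in untreated cells (SD, n = 3 each), 6.14-fold lower, and the log2 change was -2.28 (SE 0.18, limma adjusted p = 4.54e-07). It was -1.25 after 7 h (limma adjusted p = 0.000193), -1.16 after 14 h (adjusted p = 0.000134) and -0.69 after 21 h (adjusted p = 0.00752), and the last call was lost without 0 h A (-0.55, adjusted p = 0.0552). After 30 h the change of -0.35 missed the threshold (limma adjusted p = 0.176), whereas the mean over both probe sets, -0.68, passed it (adjusted p = 0.0424). The rise between 3 h and 7 h, 1.03 (limma adjusted p = 0.00635), made Cbfa2t3 the 1 member probe set called in that comparison, where 0.733% of all probe sets were higher. Fitted on those 6 arrays alone the adjusted p was 0.0851. Over 3 h, Cbfa2t3 was higher by 1.12 after 14 h, 1.58 after 21 h and 1.93 after 30 h (limma adjusted p = 8.25e-08 after 30 h) in the added comparisons. The brighter probe set had regained 45.3% of its log2 fall after 7 h, 49.0% after 14 h, 69.5% after 21 h and 84.6% after 30 h.

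The other Cbfa2t3 probe set was dim and tells less. It gave 69.8, 60.5 and 63.7 in untreated cells, 14.4, 23.1 and 12.1 after 3 h, and 18.2, 17.5 and 14.2 after 7 h. Later signals were 87.9, 17.5 and 9.8 after 14 h, 18.6, 29.4 and 10.9 after 21 h, and 16.7, 41.7 and 18.5 after 30 h. Array 14 h A stood far above its replicates, and all other treated arrays lay below the untreated ones. Its log2 change of -1.22 after 3 h missed the threshold (limma adjusted p = 0.217), that of -1.19 after 21 h passed it (adjusted p = 0.0339) but not without any of 5 arrays, and without 14 h A the changes at 3, 7, 14 and 30 h were called as well. After 30 h its change was -1.002 (limma adjusted p = 0.0654), so 17.8% of its 3 h fall had been regained, and 30 h did not pass the test against 3 h (0.22, limma adjusted p = 0.759). Over the later times its log2 change differed from that of the brighter one by 0.03 to 1.06.

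The factors that Tal1 and Lyl1 bind beside were read as lists of known partners. Of the E proteins and the Id proteins that block them, 7 of 7 were on the array and 3 were called over time by the F test, where 32% of all genes were. After 30 h 2 were called, both lower, while 16.5% of all genes were lower and 14.7% higher. Tcf4, an E protein, had 44.0, 44.1 and 54.0 after 30 h, against 107, 117 and 90.9 in untreated cells, and fell by 0.88 on the log2 scale (limma adjusted p = 0.00278). Id1, an inhibitor of E proteins, changed by -0.74 (limma adjusted p = 0.000837). Tcf3 and Tcf12, the usual E protein partners of Tal1 in red cells, were not called at any time against 0 h: Tcf3 had 147, 149 and 148 after 30 h, against 176, 125 and 114 in untreated cells, and Tcf12, read by an uncertain kind of probe set, had 293, 358 and 345, against 382, 368 and 413. Id2 was called higher after 14 h alone, with signals up to 18.1 there and up to 6.6 in untreated cells, near or under the constant added before logs.

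Of the LIM-only and scaffold partners, 7 of 8 were on the array and 3 were called over time, where 32% of all genes were. After 30 h 1 was higher and 2 lower, against 14.7% and 16.5% of all genes. Ssbp2, a cofactor that shields Ldb1 from breakdown, had 223, 388 and 295 after 30 h, against 232, 194 and 213.5 in untreated cells (log2 change 0.55, limma adjusted p = 0.0252). Ssbp4, of the same family, fell by 0.79 on the log2 scale (limma adjusted p = 0.0015). Ssbp1 fell by 2.02 (limma adjusted p = 7.21e-07), but it encodes the DNA-binding protein of mitochondria and is no Ldb1 partner, despite its place on the list. Without it, 2 of 6 were called over time, and 1 was higher and 1 lower after 30 h.

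DNA-binding partners moved in both directions. Of 11 measured, 7 were called over time, where 32% of all genes were. After 3 h 2 were higher and 1 lower, where 1.02% of all genes were higher and 0.388% lower. After 30 h 4 were higher and 2 lower, against 14.7% and 16.5% of all genes. Gata2, the Gata factor of progenitors, gave 402, 611 and 349.8 after 3 h, against 2092, 1939.7 and 1696 in untreated cells, a log2 change of -2.20 (limma adjusted p = 1.7e-05) that reached -3.96 after 30 h. Zfpm1 (Fog-1), the cofactor of Gata-1, rose by 0.84 after 3 h and 1.82 after 30 h (limma adjusted p = 1.17e-08 after 30 h). Klf1, a zinc finger factor of red cells, rose by 0.47 after 3 h, with an adjusted p of 0.0485, and by 0.90 after 30 h. Gata1 read 479.9, 605 and 418 after 30 h, against 201, 157 and 269 in untreated cells (log2 change 1.29, limma adjusted p = 6.76e-05), and whether its probes see the disrupted gene or the fusion was not settled.

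Of 10 corepressors measured, 1 was called after 3 h and 4 after 30 h, all of them lower, where 0.388% and 16.5% of all genes were lower. Hdac2, a histone deacetylase, had 70.5, 58.2 and 66.1 after 30 h, against 258, 284 and 317 in untreated cells (log2 change -1.81, limma adjusted p = 5.62e-06), and Hdac1 changed by -0.97 (adjusted p = 1.02e-05). Chd4, the remodelling enzyme of the NuRD complex, read by an uncertain kind of probe set, changed by -1.50 (limma adjusted p = 6.22e-08). The median over the list after 30 h was -0.43, against 0.05 over all genes. Of 6 coactivators measured, 1 was called higher and 2 lower after 30 h, where 14.7% of all genes were higher and 16.5% lower. Kat2b, an acetyltransferase, was higher by 1.34 (limma adjusted p = 1.41e-05). Of the 2 that were lower, Smarca4, the motor of a remodelling complex, had a change of -1.29 (adjusted p = 7.38e-07). Cdk9 had a change of -0.16 that was not called. Tal2, Nhlh1 and Tcf21, further bHLH factors of this kind, stayed dim (at most 70.7 on any array) and 0 of the 3 were called by the limma F test, 1 of them with an unadjusted p under 0.05.

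**Figure D5:**
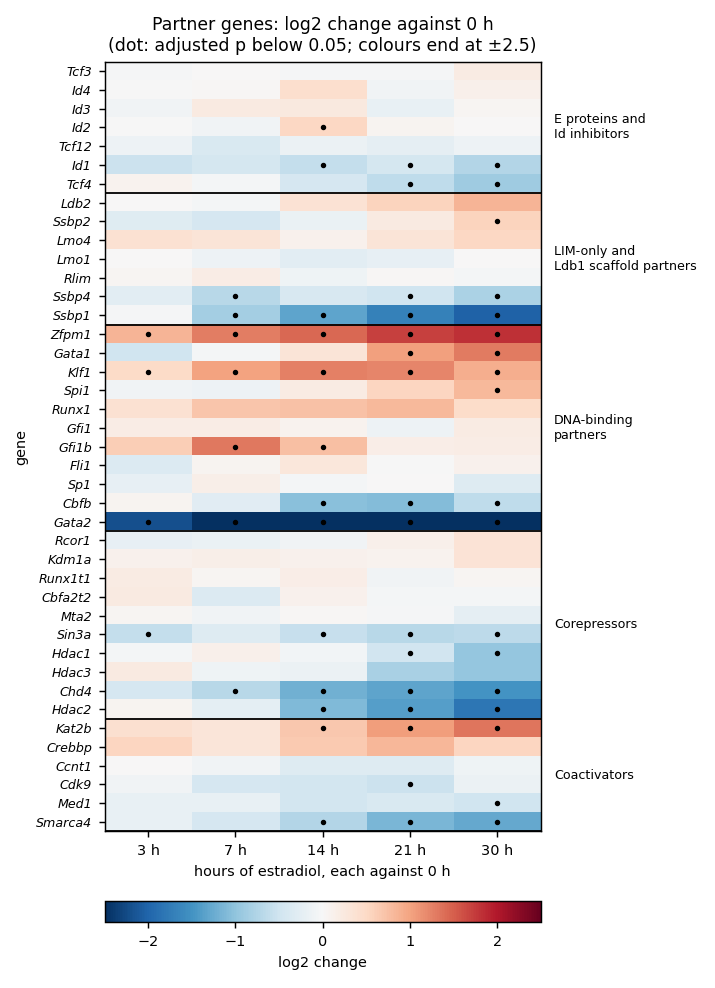
Log2 change against 0 h (colour, limma) of the measured partner genes at 3, 7, 14, 21 and 30 h of estradiol (columns), grouped by list (rows), with a dot where the adjusted p was below 0.05. Gata2 and Ssbp1 are the darkest blue rows after 30 h (-3.96, beyond the colour scale, and -2.02) and Zfpm1 the darkest red (1.82). Ssbp1 encodes the DNA-binding protein of mitochondria and is no Ldb1 partner, despite its place in the figure.

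Genes known from the literature to be bound by the complex were read as a further list. Of 11 measured, 1 was higher after 3 h, where 1.02% of all genes were higher, and 6 after 7 h, where 3.21% were. After 30 h 8 were higher and 1 lower, where 14.7% of all genes were higher and 16.5% lower. Alas2, which starts heme synthesis in erythroid cells and was read by an uncertain kind of probe set, had 11810.3, 12316 and 13301 after 30 h, against 124, 107 and 93.9 in untreated cells, a log2 change of 6.68 (limma adjusted p = 9.7e-14). Slc4a1, an anion exchanger of erythrocyte membranes, changed by 5.40 and Hbb-b2, a beta globin, by 2.87 after 30 h. The 1 gene called higher after 3 h was Klf1, which, like Gfi1b, is also counted among the DNA-binding partners above. After 3 h Alas2 stood at 0.91 (limma adjusted p = 0.0583), Slc4a1 at -0.41 and Hbb-b2 at 0.42, none of them called. Every Alas2 array after 3 h nonetheless lay above every untreated one. Tal1, Lyl1 and the brighter Cbfa2t3 probe set were called lower at that time. Whether they changed before the genes of this list was not tested. The gene that was lower is Kit, the stem cell factor receptor, named after its values were seen (-3.55 after 30 h).

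The courses most like those of the members were found by the root mean square difference of the 6 time means, each probe set centred on its own mean over 18 arrays. For Tal1 they were Rbm38 (0.06), Il10rb (0.14) and Ifngr2 (0.21), and Rbm38 averaged 1546, 610, 861, 1199, 1534 and 1851 from 0 h to 30 h. For Cbfa2t3 they were Mnt (0.27), Tal1 itself (0.27) and Rbm38 (0.28). For Lmo2 they were Srrt (0.10), Casp6 (0.14) and Isoc1 (0.14). Lyl1 had no course as close: its nearest were Nefh (0.52), Gata2 (0.70) and Bzw2 (0.70). The difference is not scaled to the size of a course, and the Lyl1 course is the largest of the members. These distances therefore do not compare shapes alone. Some of these genes were dim: Ifngr2 averaged 16.4 and Mnt 16.7 after 3 h, and Casp6 24.5 in untreated cells, near the constant added before logs. These likenesses rest on 6 means from the same 18 arrays and are descriptions only.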

How the data were processed

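RNA of 18 G1E-ER4 samples (6 times, 3 biological replicates each) was read on 18 Affymetrix MG-U74Av2 arrays. The values the authors deposited are linear intensity values, with 1 value per probe set in every array, as the values themselves show. The summary algorithm, scaling target and detection calls are not given in the sources used here. Every array has nearly the same 2% trimmed mean, so the arrays stood on a common scale when deposited, and a shift of all RNA together could not be seen. The number of arrays limits the precision, and signals near the constant below hold little information.

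From the deposited values, 16 was added, log2 taken and arrays quantile normalized. limma 3.58.1 in R 4.3.3 fitted 1 mean for each time (12 residual degrees of freedom) with an intensity trend, and Benjamini-Hochberg adjustment ran over the 12422 probe sets left after 66 controls were taken out. All adjusted p-values of genes come from limma, and log2 changes are on the log2(value + 16) scale, which understates changes of dim probe sets. Fold values are ratios of mean deposited signals. The test was tried on simulated data before use. Symbols come from the platform annotation (10833 probe sets with 1 symbol, 396 with several, 1193 with none). All 8 member probe sets matched the gene table by gene number. Where a gene had several, the probe set of highest mean log2 stood for it. Partner genes named with values are the 3 of each list with the smallest F test p, plus Gata1, Gata2, Tcf3, Tcf4 and Tcf12. The members, lists and tests were chosen with earlier results of these data known.

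Same-letter replicates were checked for pairing: the correlation of their deviations from the time means had a median of 0.03 (-0.09 to 0.20, 3 of 45 above 0.1). For arrays of different letters the median was -0.008 (-0.15 to 0.07, 0 of 90 above 0.1). With correlations this small, the letters were not used as pairs. Alternatives were other normalizations, constants of 1 and 64, the dimmest probe sets left out, no trend, array weights, a replicate block, a gene's probe sets averaged, the compared times alone and each array left out. 6 comparisons between later times were added after the data were seen. Figures were drawn with matplotlib 3.10.9 in Python 3.11.15.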

Additional observations from a re-analysis of the deposited data

How the results depend on the processing

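All 26 called member changes in the planned comparisons kept their direction under every setting tried, 22 of them stayed past the threshold under each setting other than leaving out an array, and 20 without each array in turn. The counts of member probe sets called in the comparisons with 0 h and in the F test stayed within 1.5 times under the settings other than leave-outs. Counts between neighbouring times were less steady. With the compared groups alone, 0 members were called at 7 h against 3 h, at 21 h against 14 h and at 30 h against 21 h, with 4, 5 and 4 of the 8 at an unadjusted limma p under 0.05. A constant of 1 left 1 call at 14 h against 7 h. At 21 h against 14 h array weights gave 3 calls and the replicate block 2. At 30 h against 21 h there were 2 calls without quantile normalization, with a constant of 1, with the dimmest probe sets left out and with the replicate block, and 0 with a constant of 64, with no intensity trend and with array weights, with 5, 5 and 4 at an unadjusted limma p under 0.05. Which members these were changed too: with the constant of 1 and with the dimmest probe sets left out both were Lyl1, without quantile normalization they were the brighter Lyl1 and the brighter Lmo2 probe sets, and with the replicate block both were Lmo2 (adjusted p = 0.0445 and 0.0484) while Lyl1 was lost (0.0538). Median scaling called the brighter Lmo2 probe set in place of Lyl1. At 21 h against 14 h the further calls were Lmo2 as well. The cause was not tested. Leaving out 1 array in turn gave 4 to 5 calls after 3 h, 5 to 7 after 7 h, 5 to 6 after 14 h, 2 to 4 after 21 h and 2 to 3 at 30 h against 0 h. It gave 1 at 7 h against 3 h, 1 to 2 at 14 h against 7 h, 0 to 3 at 21 h against 14 h, 0 to 3 at 30 h against 21 h, and 6 to 7 in the F test. The change of the Lyl1 to Tal1 difference lay between -1.07 and -0.58 after 3 h, -1.45 and -1.06 after 7 h, -3.96 and -3.36 after 14 h, -5.20 and -4.51 after 21 h, and -5.89 and -5.58 after 30 h when 1 array was left out. Under the other settings tried for it, that change lay between -5.00 and -4.37 after 21 h and between -6.06 and -5.04 after 30 h. At the earlier times those settings stayed within the leave-out ranges.

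Every direction that turned belonged to a change that had not been called. At 7 h against 3 h the dimmer Cbfa2t3 probe set stood at 0.017 without quantile normalization, and at 30 h against 14 h it stood at 0.13 with array weights. Ldb1 at 21 h against 14 h stood at 0.0024 under median scaling. Leaving out 1 array turned further ones, whose log2 changes then ranged as follows. For Tal1 the range was -0.38 to 0.027 at 21 h against 0 h and -0.079 to 0.27 at 30 h against 0 h. For the dimmer Lmo2 probe set the range was -0.022 to 0.29 at 21 h against 0 h. For Ldb1 the range was -0.12 to 0.32 at 21 h against 0 h and -0.34 to 0.13 at 21 h against 14 h. For the dimmer Cbfa2t3 probe set the range was -0.14 to 0.071 at 7 h against 3 h, -0.13 to 0.81 at 14 h against 7 h, -0.73 to 0.21 at 21 h against 14 h, -0.14 to 0.45 at 30 h against 21 h, -0.19 to 0.76 at 14 h against 3 h, -0.23 to 0.21 at 21 h against 3 h, -0.11 to 0.40 at 30 h against 3 h, -0.18 to 0.26 at 21 h against 7 h, -0.061 to 0.45 at 30 h against 7 h and -0.54 to 0.40 at 30 h against 14 h. For the brighter Lyl1 probe set the range was -0.19 to 0.062 at 7 h against 3 h. For the dimmer Lyl1 probe set the range was -0.31 to 0.0064 at 7 h against 3 h. For the brighter Cbfa2t3 probe set the range was -0.023 to 0.18 at 14 h against 7 h. The cause was not tested.

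Taking the mean over both Cbfa2t3 probe sets gave -0.68 at 30 h against 0 h (limma adjusted p = 0.0424), where the brighter one alone was not called.

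The replicate letters were not used as pairs in the main fit, although 13 of 18 arrays correlated best with arrays of their own letter. This is a hint of a letter effect from the data and not from the design. With the replicate block 605 probe sets were called at 7 h against 0 h and 3351 after 30 h, where 518 and 3314 were called without it. Counts over all probe sets moved by over 1.5 times in these cases: 84 (compared groups alone) to 202 (array weights) after 3 h, where 132 were called, 8 at 7 h against 3 h, where 132 were called, 76 at 14 h against 7 h, where 289 were, 37 at 21 h against 14 h, where 288 were, 341 after 7 h, where 518 were, and 290 at 30 h against 21 h, where 619 were, each with the compared groups alone. Leaving out 1 array moved them to 78 to 155 after 3 h, 52 to 153 at 7 h against 3 h, 140 to 338 at 14 h against 7 h, 119 to 360 at 21 h against 14 h and 402 to 644 at 30 h against 21 h. Signals near 16 hold little information, which limits the dim Cbfa2t3 probe set, Lyl1 after 30 h and its dimmer probe set after 21 h.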
